A study of Mus musculus with 2 samples.

Results

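The microRNA (miRNA) genes of the miR-23, miR-27 and miR-24 families lie in a pair of paralogous clusters, Mir23a, Mir27a and Mir24-2 on mouse chromosome 8 and Mir23b, Mir27b and Mir24-1 on chromosome 13. They were chosen by name from the annotation, together with Mir3074-1, the miRNA gene on the strand opposite to Mir24-1, and they make 7 of the 1974 features of the count tables once Mir24-1 is added. Of these, 6 had a row of their own, and Mir24-1 was read from the opposite-strand counts of Mir3074-1. The samples were 2 small RNA libraries, size-limited to under 30 nucleotides, of whole stomach from healthy B6NCrl mouse embryos at 16.5 days. Each was a pool of male and female tissue, 41 embryos for replicate 2 and a number the labels do not give for replicate 1. The labels call them biological replicates, but both carry the same donor label, so the spread between them may be partly technical. No other tissue, age or treatment was measured.

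A miRNA is cut from a hairpin precursor in the nucleus and again in the cytoplasm, and the short mature strand guides silencing of messenger RNAs that match its seed, the bases near its 5′ end. Neighbouring hairpins of a cluster are commonly carried on the same primary transcript, so that different mature miRNAs can come from the same RNA molecule. The miR-23, miR-27 and miR-24 families are best known from blood vessels, where miR-23 and miR-27 promote vessel sprouting in mice, from differentiation of muscle and fat cells, and from T cells. In bulk tissue such as this, fewer cells of a type and less RNA per cell cannot be told apart.

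The mature sequences are shown first, because they set which reads of each gene could be assigned to a single copy. They were taken from RefSeq on GRCm38.p6, which holds hairpins for 7 of the 7 genes, and bases 2 to 8, the seed, are in capitals. The 3′ arm of the Mir23b hairpin gives miR-23b-3p, but the RefSeq set used here holds no mature entry for it, so it was not compared. The other 3′ arms of the cluster genes, the 5′ arms of the miR-24 genes and the 5′ arm of Mir3074-1 are as follows.
miR-23a-3p: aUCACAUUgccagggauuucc
miR-27a-3p: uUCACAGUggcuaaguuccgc
miR-27b-3p: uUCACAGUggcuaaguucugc
miR-24-3p: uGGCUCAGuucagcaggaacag
miR-24-2-5p: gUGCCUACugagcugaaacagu
miR-24-1-5p: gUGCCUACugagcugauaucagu
miR-3074-5p: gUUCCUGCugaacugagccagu

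Both miR-27 copies share the same seed and differ by a single substitution, C19U, counted from base 1 at the 5′ end with the miR-27a base first. A read of miR-27 that stops at base 18 therefore matches both hairpins. The first 18 bases of miR-23a-3p also stand in more than 1 of the 1005 RefSeq hairpins, and 19 bases are needed for a single match. The seeds of miR-23a-3p and miR-27a-3p hold the same base in 6 of 7 places and differ by U7G. Reads of miR-24-3p cannot be split at all, since the whole 22-base sequence stands in both miR-24 hairpins, which share a stretch of 28 bases. The 5′ arms can be split, because miR-24-2-5p and miR-24-1-5p part at base 17 (A17U). The whole of miR-3074-5p likewise stands in 2 hairpins, those of Mir3074-1 and Mir3074-2. In the RefSeq table used here, no mature sequence of another gene has the miR-27 seed. The miR-24-3p seed recurs in Mir5124b, Mir6369, Mir6410 and Mir6413, which had 0 sense reads in both libraries.

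The clusters differ in setting and in spacing. On chromosome 8 (GRCm38, the assembly that mm10 names) Mir23a lies from 84208518 to 84208592, Mir27a from 84208672 to 84208758 and Mir24-2 from 84208815 to 84208921, all on the plus strand and 404 bases end to end. No gene other than a miRNA gene is annotated over them on either strand, and Zswim4 is the nearest protein-coding gene, 1757 bases from Mir24-2. On chromosome 13 Mir23b lies from 63300484 to 63300557, Mir27b from 63300712 to 63300784 and Mir24-1 from 63301208 to 63301275, also on the plus strand and 792 bases end to end. These lie inside 2010111I01Rik, with Mir23b in an intron and Mir27b and Mir24-1 overlapping an exon of at least 1 of its transcripts. Mir3074-1 lies on the minus strand from 63301199 to 63301283, in an intron of Fancc, a gene of the Fanconi anaemia repair pathway.

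**Figure D1:**
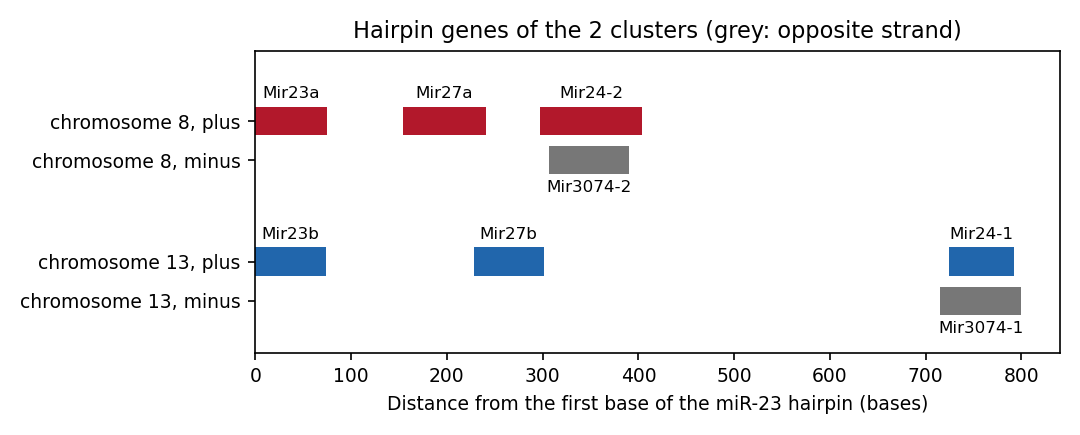
Hairpin genes of the miR-23, miR-27 and miR-24 clusters drawn to scale, with the distance in bases from the first base of Mir23a (chromosome 8, red) or Mir23b (chromosome 13, blue) on the x axis and the strand on the y axis; the opposite-strand genes are grey. The chromosome 8 cluster spans 404 bases and the chromosome 13 cluster 792 bases.

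The libraries held 7734578 sense-assigned reads in replicate 1 and 7983714 in replicate 2, and 3 counts, the limit that a count of 0 allows, equal 0.388 and 0.376 CPM, where CPM scales a count to 1000000 of those reads. A further 25.1% and 25.2% of all reads were placed in several positions and are held in a separate total, so gene counts are inferred to leave them out. How many of them came from the genes described here is not recorded. Values below therefore describe reads placed in a single position, and those of the miR-24 genes leave out any read that matches both copies. Intervals and floors cover counting error only.

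The miR-23 genes gave most of the reads. Mir23a had 114898 reads in replicate 1 and 170358 in replicate 2, or 14855 and 21338 CPM, a mean of 18097 ± 4584 CPM (SD, n = 2). Mir23b had 138972 and 201256 reads, or 17968 and 25208 CPM, a mean of 21588 ± 5120 CPM (SD, n = 2). Both genes were higher in replicate 2, and the ranges of the paralogs overlapped across libraries, with Mir23a in replicate 2 above Mir23b in replicate 1. Mir23b ranked 12 and Mir23a ranked 14 among all features by mean CPM. Together they made up 92.0% ± 1.14 (SD, n = 2) of the reads of the 6 cluster genes.

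The miR-27 genes stood well below them and were far apart from each other. Mir27a had 3438 reads in replicate 1 and 4654 in replicate 2, or 444 and 583 CPM, and averaged 514 ± 97.9 CPM (SD, n = 2). Mir27b had 18399 and 20721 reads, or 2379 and 2595 CPM, and averaged 2487 ± 153 CPM. The lowest Mir27b value lay above the highest Mir27a value, and the gap between their means, 1973 CPM, was larger than either SD. In vertebrates miR-27 is known to repress Runx1 and Pparg, regulators of blood cell and fat cell differentiation. The pair held 7.09% ± 1.07 of the cluster reads.

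Few reads were counted at the miR-24 genes. Mir24-2 had 2253 reads in replicate 1 and 2828 in replicate 2, or 291 and 354 CPM, a mean of 323 ± 44.5 CPM (SD, n = 2). Mir24-1 had 448 and 609 reads, or 57.9 and 76.3 CPM, a mean of 67.1 ± 12.98 CPM. Both miR-24 genes together held 0.914% ± 0.0791 of the cluster reads, and since miR-24-3p is the same in both hairpins this is a share of the reads that could be placed, not of all miR-24.

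The opposite strand of Mir24-1 was also read. Mir3074-1 had 346 reads in replicate 1 and 429 in replicate 2, or 44.7 and 53.7 CPM, a mean of 49.2 ± 6.36 CPM (SD, n = 2). At this locus the plus strand held 1.29 times as many reads as the minus strand in replicate 1 and 1.42 times as many in replicate 2. At the other miR-24 locus, where Mir3074-2 is annotated opposite to Mir24-2 without a row of its own, the minus strand held 1 read in replicate 1 and 2 reads in replicate 2, under the limit of 3 counts. Over all genes 3.35% of assigned reads in replicate 1 and 2.82% in replicate 2 lay on the opposite strand, while Mir23a, Mir23b and Mir27b had 0 and Mir27a had 0 and 2. Reads of miR-3074-5p match both loci, so this difference between the loci is one of reads placed in a single position.

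**Figure D2:**
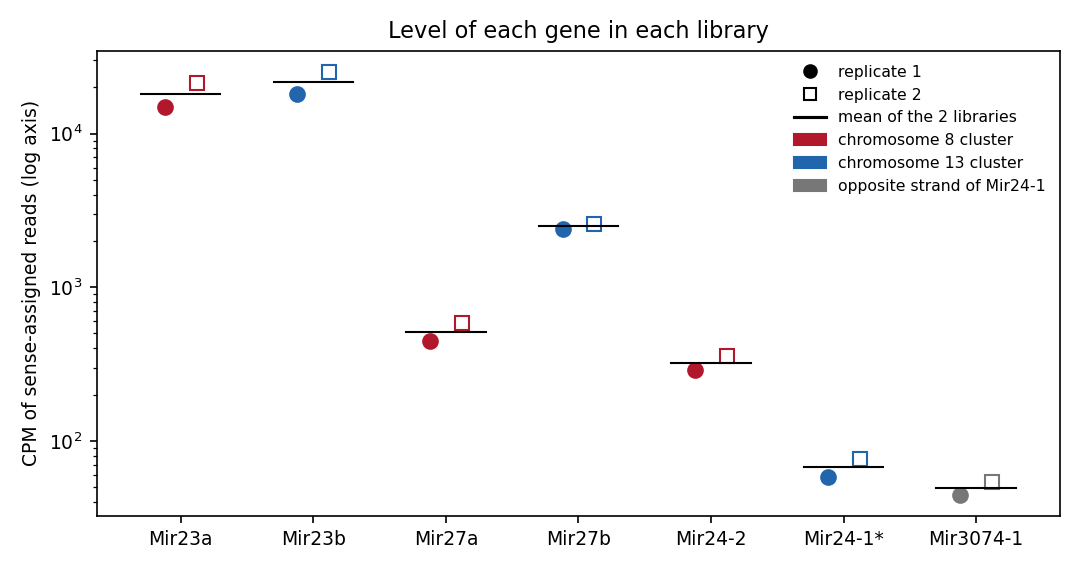
CPM of sense-assigned reads on a log axis for each gene, with filled circles for replicate 1, open squares for replicate 2 and lines for the mean; Mir24-1, marked with an asterisk, was read from the opposite strand of Mir3074-1. Values run from 25208 CPM for Mir23b in replicate 2 down to 44.7 CPM for Mir3074-1 in replicate 1, and each gene is higher in replicate 2.

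In order of mean CPM the genes ran Mir23b, Mir23a, Mir27b, Mir27a, Mir24-2, Mir24-1, Mir3074-1. Mir23b and Mir23a were 3491 CPM apart, less than the SD of either, so their order by level is not settled by the means. For the remaining neighbours in this order, the ranges over the libraries did not overlap and the gap exceeded the larger SD. Mature lengths here, without miR-23b-3p, are between 21 and 23 bases, and CPM was not divided by length. Among all features, Mir130a stood next above Mir23b at 21971 ± 1285 CPM, Mir322 stood between Mir23b and Mir23a at 18242 ± 1170 CPM, and Mir17 followed Mir23a at 15359 ± 1970 CPM (SD, n = 2). Mir27b ranked 59, between Mir296 and Mir342, and Mir27a ranked 121, between Mir15b and Mir125b-1. Mir24-2 ranked 142, between Mir339 and Mir323. Mir24-1 ranked 212, between Mir668 and Mir1981, and Mir3074-1 ranked 224, between Mir30c-1 and Mir666. None of these genes differed from its neighbour by more than the larger of their SDs.

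The design holds no contrast of conditions, so the question asked of the paralogs was how the reads of each family divided between the chromosome 8 and the chromosome 13 copy within a library. The division was different for each family. Mir23a held 45.3% of the miR-23 reads in replicate 1 and 45.8% in replicate 2, with exact Clopper-Pearson 95% intervals of 45.06% to 45.45% and of 45.68% to 46.00%, so the chromosome 13 copy had more reads in each library. Mir27a held 15.7% of the miR-27 reads in replicate 1 (15.3% to 16.2%) and 18.3% in replicate 2 (17.9% to 18.8%). Mir24-2 held 83.4% of the miR-24 reads that could be placed in replicate 1 (82.0% to 84.8%) and 82.3% in replicate 2 (81.0% to 83.5%). Means over the libraries were 45.6% ± 0.413 for miR-23, 17.0% ± 1.84 for miR-27 and 82.8% ± 0.801 for miR-24 (SD, n = 2). The values of the families did not overlap, and the smallest gap between them was many times the SDs. The CPM ranges of Mir23a and Mir23b overlapped across libraries, but Mir23b was ahead within each library.

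Summed over the cluster, the chromosome 8 genes had 120589 reads in replicate 1 and 177840 in replicate 2, against 157819 and 222586 reads for the chromosome 13 genes. The chromosome 8 cluster thus gave 43.3% of the cluster reads in replicate 1 and 44.4% in replicate 2, a mean of 43.9% ± 0.777 (SD, n = 2). This lies below the 45.6% of the miR-23 pair alone. With the miR-24 genes left out, the chromosome 8 share of the miR-23 and miR-27 reads was 43.5%.

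**Figure D3:**
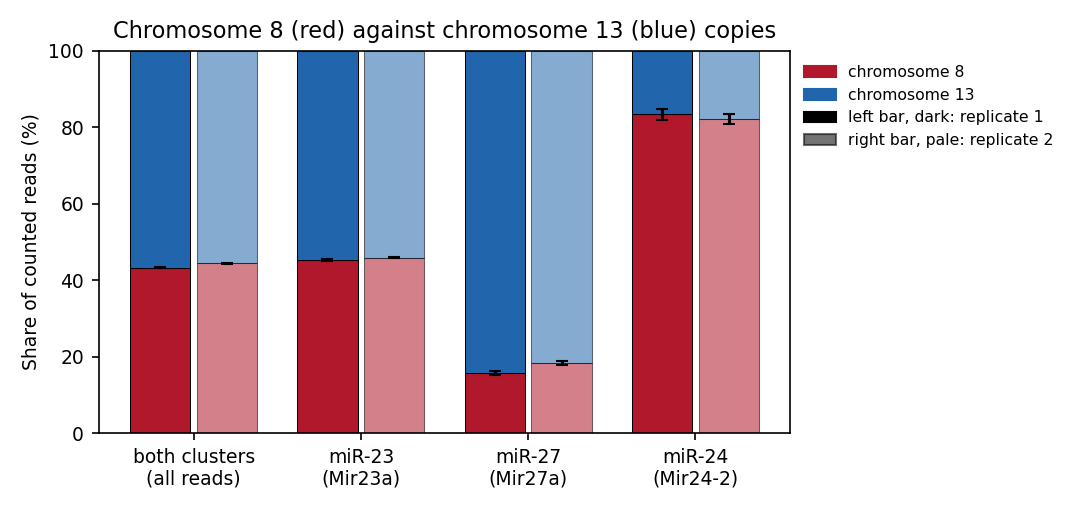
Share of counted reads (%) from the chromosome 8 copy (red) and the chromosome 13 copy (blue), for the clusters as a whole and for each family, with replicate 1 on the left of each pair of bars and replicate 2 on the right; error bars are exact Clopper-Pearson 95% intervals. The chromosome 8 share is 45.3% and 45.8% for miR-23, 15.7% and 18.3% for miR-27, and 83.4% and 82.3% for miR-24.

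The same values can be read along each cluster. On chromosome 8, Mir23a had 33.4 times the reads of Mir27a in replicate 1 and 36.6 times in replicate 2, a mean ratio of 35.0 ± 2.25 (SD, n = 2). On chromosome 13, Mir23b had 7.55 times the reads of Mir27b in replicate 1 and 9.71 times in replicate 2, a mean ratio of 8.63 ± 1.53. The ratio on chromosome 8 was therefore 4.42 times that on chromosome 13 in replicate 1 and 3.77 times in replicate 2, a gap larger than the spread between libraries. Mir27a had 1.53 and 1.65 times the reads of Mir24-2, against 41.1 and 34.0 times for Mir27b over Mir24-1. The counts of Mir24-2 and Mir24-1 are inferred to leave out any read that matches both copies. The ratios over these genes therefore cover only the miR-24 reads that could be placed. They do not measure how total miR-24 compares with miR-27 in each cluster. For Mir23a to Mir27a against Mir23b to Mir27b, an exact two-sided paired permutation test of log ratios gave p = 0.5 (n = 2 libraries). That is the smallest value that 2 libraries allow, so the test cannot pass a threshold of 0.05. The ratios of miR-27 to miR-24 genes were not tested.

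The second question was how far the genes moved between the libraries. Ratios of replicate 1 over replicate 2 were taken after scaling by trimmed mean of M values (TMM), which allows for a few genes taking a changed share of the reads. A two-sided exact binomial test of the read counts was run on 290 features at a mean of 10 CPM or more, with Benjamini-Hochberg adjustment over all of them. It compares these libraries and not conditions. At an adjusted p under 0.05 and at least 2-fold, 0 of the 7 genes were called, against 7.93% of all features, 7.24% higher and 0.69% lower in replicate 1. Without a minimum fold 7 of 7 were called, all lower in replicate 1, against 76.2% of all features in either direction and 37.9% in that direction. An unadjusted p under 0.05 was reached by 7 of the 7, against 223 of the 290 features. With DESeq2 size factors 0 of the 7 were called at 2-fold, against 21 of the 290.

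Mir23a had a log2 ratio of -0.70 (95% interval -0.72 to -0.69) and Mir23b one of -0.67 (-0.68 to -0.66). These 2 genes were 1.63-fold and 1.59-fold higher in replicate 2 and passed the test at a minimum of 1.5-fold. Scaled by total sense-assigned reads they were 1.44-fold and 1.40-fold higher, and this call was lost. At that minimum 20% of all features were called in either direction and 4.83% lower in replicate 1. Mir27a had a log2 ratio of -0.57 (-0.64 to -0.51, adjusted exact p = 4.76e-70), and Mir27b was the least displaced of the genes at -0.31 (-0.34 to -0.28, adjusted exact p = 5.66e-98). The intervals of the miR-27 copies did not overlap, and the Mir27a share of the pair was higher in replicate 2. The intervals of the miR-23 copies did not overlap either, but their log2 ratios were closer to each other.

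Mir24-2 had a log2 ratio of -0.46 (95% interval -0.54 to -0.38), Mir24-1 one of -0.58 (-0.76 to -0.40) and Mir3074-1 one of -0.45 (-0.66 to -0.24). With 346 to 2828 reads, these genes had wider intervals than the miR-23 genes, and the intervals of these genes overlapped each other. The median log2 ratio was -0.57 over the 7 genes and 0.02 over the 290 features, of which 137 were lower in replicate 1. The genes of a cluster lie within 792 bases and may share a transcript, so they do not count as independent. Of the 290 features, 7 had a log2 ratio at or below that of Mir23a and 46 at or below that of Mir27b. In either direction, 43 lay at least as far from 0 as Mir23a and 119 at least as far as Mir27b. In the share of sense-assigned reads, the 6 cluster genes held 3.60% in replicate 1 (exact 95% interval 3.59% to 3.61%) and 5.02% in replicate 2 (5.00% to 5.03%).

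**Figure D4:**
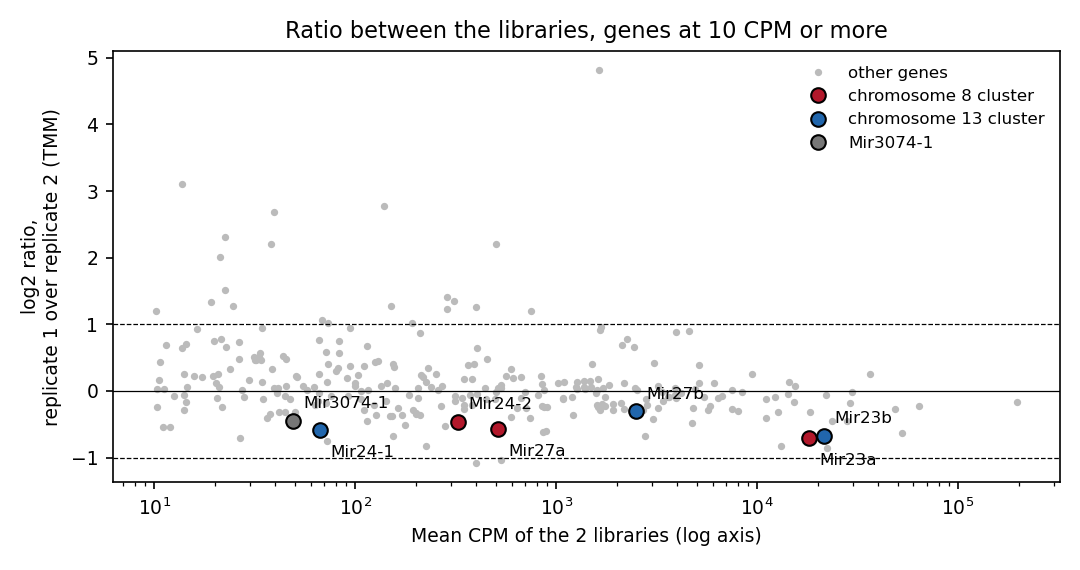
The log2 ratio of replicate 1 over replicate 2 after TMM scaling (y axis) against mean CPM on a log axis (x axis) for 290 features, with the chromosome 8 genes in red, the chromosome 13 genes in blue, Mir3074-1 in dark grey and dashed lines at 2-fold. The named genes lie between -0.70 for Mir23a and -0.31 for Mir27b, below 0 and inside the dashed lines.

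Among 94 other genes with mean levels of at least 1000 CPM, those with a log2 ratio nearest to Mir23a and to Mir23b were the same 3, over 2 libraries only. Mir183, a miRNA gene of sensory and other epithelia, had a log2 ratio of -0.68, with 2304 CPM in replicate 1 and 3255 CPM in replicate 2. Mirlet7g had a log2 ratio of -0.63, with 44625 and 60911 CPM, and Mirlet7d one of -0.82, with 10327 and 16074 CPM. With 2 libraries, likeness rests on a single ratio per gene.

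Marker miRNA genes of several cell types, not all of them of the stomach wall, were read beside these ratios, and their part in the result was not tested. At 2-fold, 7.24% of all features were called higher and 0.69% lower in replicate 1, the shares beside which the calls in each list stand. Mir126a, the endothelial marker and the only member of its list with a row, stood at 29029 CPM in replicate 1 and 29049 CPM in replicate 2, a log2 ratio of -0.18. The log2 ratios of Mir23a and Mir23b were -0.70 and -0.67, and a link to endothelial content was not tested. The smooth muscle list summed to 202084 and 197398 CPM, the simple epithelial list to 50884 and 51089 CPM, and the mesenchymal list to 9313 and 7559 CPM, with 0 members called at 2-fold in each. Within these sums, Mir145a stood at 5317 and 2540 CPM (log2 ratio 0.88) beside Mir143 in the smooth muscle list, and Mir199b in the mesenchymal list had a log2 ratio of 0.96. In the simple epithelial list, members moved in both directions. Mir429 stood at 21476 and 25747 CPM (log2 ratio -0.44) and Mir200b at 10804 and 7980 CPM (0.25). The stratified epithelial list had the lowest log2 ratio of its sum, -0.60, at 28558 and 38234 CPM. That sum moved through Mir203, at 17200 and 27343 CPM, while Mir205 stood at 11359 and 10891 CPM. The striated muscle list went the other way, at 3362 and 202 CPM, with 3 of 4 tested members called higher in replicate 1 and Mir133a-1 and Mir133a-2 at 0. Most of that sum in replicate 1 was Mir206, at 3184 CPM, against 99.8 CPM in replicate 2. The tested member not called, Mir208b, stood at 110 and 89.2 CPM (log2 ratio 0.12). The erythroid list summed to 1240 and 591 CPM, with 1 of 3 called higher in replicate 1. That member was Mir451a, at 1086 and 418 CPM, while Mir144 stood at 139 and 159 CPM and Mir486 at 15.8 and 13.3 CPM. The gastrointestinal epithelial list stood at 4171 and 3774 CPM and the leukocyte list at 1355 and 1247 CPM. The neuronal list stood at 1401 and 1128 CPM, with Mir124a-1, Mir124a-2 and Mir124a-3 at 0. Mir137 held 1399 and 1126 CPM of that sum. The hepatocyte gene Mir122 stood at 1821 and 1210 CPM. In the gastrointestinal, leukocyte, neuronal and hepatocyte lists no member was called, and Mir137 was the only neuronal gene tested. A count of 0 in any list covers only reads placed in a single position and does not show absence.

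The spread of levels along a cluster was then set beside 6 other miRNA clusters of the mouse genome. The highest gene of the chromosome 8 cluster had 51.0 times the CPM of the lowest in replicate 1 and 60.2 times in replicate 2, and on chromosome 13, 310 and 330 times. The lowest genes here are Mir24-2 and Mir24-1. Reads of miR-24-3p match both, so these ratios cover only the miR-24 reads that could be placed. In the miR-17-92 cluster, known from proliferating cells, Mir17 exceeded Mir19b-1 by 3410 and 1549 times. In the other five clusters the ratio was lower than on chromosome 8 in both libraries. It was 25.4 and 23.9 from Mir322 to Mir503, 13.5 and 15.9 from Mir429 to Mir200a, and 14.4 and 14.2 from Mir93 to Mir25. It was 2.76 and 2.57 from Mir182 to Mir96, and 1.96 and 4.52 from Mir99b to Mir125a, where Mirlet7e has no row. Within the clusters with the widest spread, the lowest genes Mir24-2, Mir24-1 and Mir19b-1 each hold a mature sequence that stands whole in 2 hairpins. Mir92-1 does too and stood at 2438 CPM, whereas Mir19a, with no such sequence in the table, stood at 40.6 CPM. The part of shared sequences in these spreads was not tested.

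**Figure D5:**
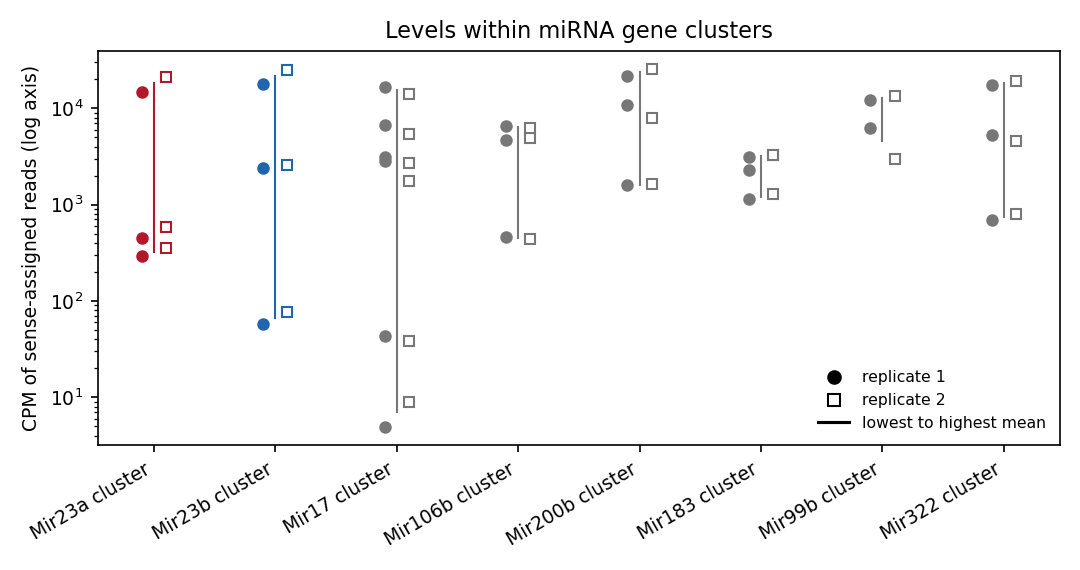
CPM of sense-assigned reads on a log axis for each member of 8 miRNA gene clusters, with circles for replicate 1, open squares for replicate 2 and a line from the lowest to the highest mean. The chromosome 8 cluster (red) runs from 323 to 18097 CPM and the chromosome 13 cluster (blue) from 67.1 to 21588 CPM; the other clusters are grey.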

How the data were processed

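Per the file headers, the authors aligned the reads to mm10 and deposited, per library, raw read counts for 1973 genes of GENCODE M4, without regard to strand, on the gene's strand and on the opposite one. The labels and headers used here name no aligner, counter or version. A count covers the whole hairpin and not its separate arms. Totals that name no gene (multi-position reads, unmapped reads at 21.3% and 20.3%, reads outside genes at 2.81% and 3.11%) were left out.

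The strand column with the larger total was used. Symbols and coordinates came from GENCODE M21 on GRCm38 (1894 of 1973 identifiers matched), and mature sequences from RefSeq. CPM scales a gene's count to 1000000 sense-assigned reads. TMM factors came from edgeR 4.0.16 (R 4.3.3) over genes at 10 CPM or more, 0.5 was added to counts for ratios, and DESeq2 1.42.0 gave alternative size factors. Tests used scipy 1.17.1 under Python 3.11.15. The test was run on simulated data with known folds. Genes were named by a rule: every member, its neighbours by level, and the 3 nearest in ratio to Mir23a and Mir23b at 1000 CPM or more. The members, the 11 marker lists and the comparison clusters were chosen with earlier results of these data known. Genes sharing a seed and Mir19a, Mir92-1, Mir145a, Mir199b, Mir203, Mir205, Mir451a, Mir144, Mir486 and Mir137 were named after their values were seen. The same holds for Mir206, Mir208b, Mir200b and, as a marker, Mir429.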

Additional observations from a re-analysis of the deposited data

How the results depend on the processing

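Of the alternatives that kept both libraries, 20 moved a share or count of calls by less than 1 SD or 1.5 times and 8 moved it further; the 27 for single genes kept direction and stayed under 2-fold. With 2 libraries, leaving 1 out moves a mean by less than its SD whatever the values, so those ranges show no stability. The share of the 6 cluster genes, 4.31%, was 2.14% of all reads, where the denominator is larger, and 3.60% to 5.02% with each library left out. The Mir24-2 share of miR-24 reads, 82.8%, was 73.6% when strand was ignored, since Mir3074-1 reads then join Mir24-1, and 82.3% to 83.4% with each library left out. With each library left out, the other shares ran from 43.3% to 44.4% for the chromosome 8 cluster, 45.3% to 45.8% for Mir23a and 15.7% to 18.3% for Mir27a. The ratios, an alternative added after seeing the data, ran from 33.4 to 36.6 for Mir23a to Mir27a and 7.55 to 9.71 for Mir23b to Mir27b. Features called between libraries numbered 23, and 59 without a filter on low counts, 12 at a mean of 100 CPM or more, 58 at a minimum of 1.5-fold and 221 without a minimum; of the 7 genes, 2 were called at 1.5-fold and 7 without a minimum.

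Scaling by total reads moved the median log2 ratio of all features from 0.02 to 0.20 and gave log2 ratios of -0.52 for Mir23a, -0.49 for Mir23b and -0.13 for Mir27b, so the calls of Mir23a and Mir23b at 1.5-fold were lost. Ignoring strand gave no value for the ratio of Mir24-1, which has no row. No pairing between groups was possible because the series has a single group. Copies were compared within each library instead, and the permutation test paired the ratios of the clusters by library. Reads placed in several positions were not analysed here.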
